A study of Mus musculus with 71 samples.

Results

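The Hox cofactors described here are 8 mouse genes, Meis1, Meis2, Meis3, Pbx2, Pbx3, Pbx4, Pknox1 and Pknox2. They were followed through the chromatin loops that end at their promoters in synovial sarcoma (SyS). A loop belonged to a gene when an anchor lay within 2 kb of the transcription start site (TSS) of any GENCODE transcript of that gene. By this rule 47 of 24244 loops belonged to these genes, which are 8 of 55341 annotated genes. The tumors were hSS2 mouse tumors, in which Cre recombinase switches on the human fusion SS18::SSX2 from the Rosa26 locus, and TATCre protein injected into the hindlimb of young mice started both. The loops came from H3K27ac HiChIP, which joins a capture of chromatin contacts to immunoprecipitation of a histone mark of active promoters and enhancers. Both tumors carried the fusion, no tumor without it was compared, and the cells came from dissociated whole tumors, which can hold host cells. The authors merged 2 tumors into a single list, so there are no replicate values and no tests, and the intervals below cover counting error only.

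Meis, Pbx and Pknox proteins are homeodomain factors of the TALE class, named for an extended loop in the DNA-binding domain. Meis and Pknox proteins bind Pbx proteins, and Pbx proteins in turn bind DNA together with Hox proteins and sharpen the choice of Hox binding sites. Meis1 and Meis2 are known as markers of the proximal limb in the embryo, and Meis1 is also known from leukemia. Each loop carries a count of tags, the read pairs that join its anchors. The loop score of a gene is the sum of the tags of all loops at its promoter, and it measures contact under a mark and not expression.

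A known binding sequence of Pbx with Meis or Pknox, TGATTGAC, was found on either strand in promoter anchors of 2 of the 8 genes, Meis1 and Meis2. At both it ran on into the Meis sequence TGACAG, with which it shares 4 letters. The joined sequence TGATTGACAG lay in the untranslated stretch of a first exon of each gene. The sites are shown because promoter anchors of both genes hold them. The searched letters are in capitals and read 5′ to 3′ on the minus strand of GRCm38, the strand of both genes. The Meis1 site is chr11:19018610-19018639 and the Meis2 site chr2:116065255-116065284.
Meis1: aacctcgcctgTGATTGACAGctggagtgg
Meis2: attccgggcttTGATTGACAGctggagtgg
The sites were identical at 24 of 30 bases. That count includes the letters of the joined sequence, by which both sites were picked, so only the flanking bases could differ. TGATTGACAG occurred in 211 of the 16864 distinct anchors, or 1.25%. The anchors of Meis1 and Meis2 that hold it are wider than most, and in windows of the same width around the centre of every anchor the share was 4.71% at the 11.5 kb and 2.6% at the 6.43 kb of the Meis1 anchors and 2.15% at the 5.14 kb of the Meis2 anchor. Meis2 held 2 more copies of the shorter TGATTGAC, one in a coding exon near its 3′ end and the other in an exon of 2700033N17Rik, a neighbor that shares the main Meis2 anchor.

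Among the distal anchors of the loops of at least 4 tags, 2 of Meis1 and 1 of Meis2 held TGATTNAT. This is a known binding sequence of Pbx with Hox in which N is any base. The other distal anchors of these loops, at Meis1 and Pbx2, did not hold it. The sequence is common, in 31.7% of the 41 distal anchors of the members and in 25.6% of all anchors in windows of the same length. A stretch of each is shown, in capitals where the letters match on either strand, because it lies at the far end of a loop described later. The first stretch is chr11:18990260-18990379 in an intron of Meis1, at the end of a loop of 8 tags. The next is chr11:18945415-18945534, in an intron of Meis1 and at the end of a loop of 5 tags. The last is chr2:115860089-115860208, intergenic and downstream of Meis2, at the end of a loop of 5 tags. All are given on the minus strand.
Meis1 8-tag anchor: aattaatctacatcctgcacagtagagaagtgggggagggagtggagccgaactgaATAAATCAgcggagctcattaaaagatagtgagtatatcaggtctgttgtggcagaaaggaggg
Meis1 5-tag anchor: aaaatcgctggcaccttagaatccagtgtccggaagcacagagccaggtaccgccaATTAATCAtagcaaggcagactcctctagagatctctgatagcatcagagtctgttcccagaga
Meis2 5-tag anchor: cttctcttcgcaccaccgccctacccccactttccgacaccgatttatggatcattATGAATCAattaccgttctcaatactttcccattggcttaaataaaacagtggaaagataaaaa
A match to these letters is a description and not a binding site.

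Loops were found at 7 of the 8 genes, or 87.5%. Over all GENCODE genes 23.9% had a loop, and over protein-coding genes 45.8%. The 47 loops carried 112 tags (95% exact Poisson interval, 92.2 to 135), of which Meis1 took 60.7%. Without Meis1, 27 loops and 44 tags were left. The list holds only loops on a single chromosome with spans up to 2.0 Mb. No loop joined one of these genes to another, and none could be listed, since members on the same chromosome lie farther apart. No member loop ended at a promoter of the 39 Hox genes. Such a loop needs a Hox gene within the same reach of a member, so its absence says nothing on contacts beyond that reach.

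The loop scores differed widely between the genes. Meis1 had 68 tags (52.8 to 86.2), above the interval of every other member at the window of 2 kb. With a window of 5 kb Pbx2 had 68 tags as well, the same as Meis1 at that window, since the window of Pbx2 then took in the anchor at Notch4 and Gpsm3. Meis2 and Pbx2 followed with 14 tags each (7.65 to 23.5). Pbx4 had 6 tags (2.2 to 13.1), Pknox1 5 (1.62 to 11.7) and Pbx3 4 (1.09 to 10.2). The intervals of these 3 genes overlapped each other and those of Meis2 and Pbx2. Pknox2 had a single tag (0.0253 to 5.57), which lay below the intervals of Meis2 and Pbx2. Meis3 had no tag in a listed loop. Contacts that the authors' loop caller did not list are not counted, and no single-tag loop shorter than 109 kb was listed. The count of 0 thus sets no upper limit on the contacts of Meis3.

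**Figure D1:**
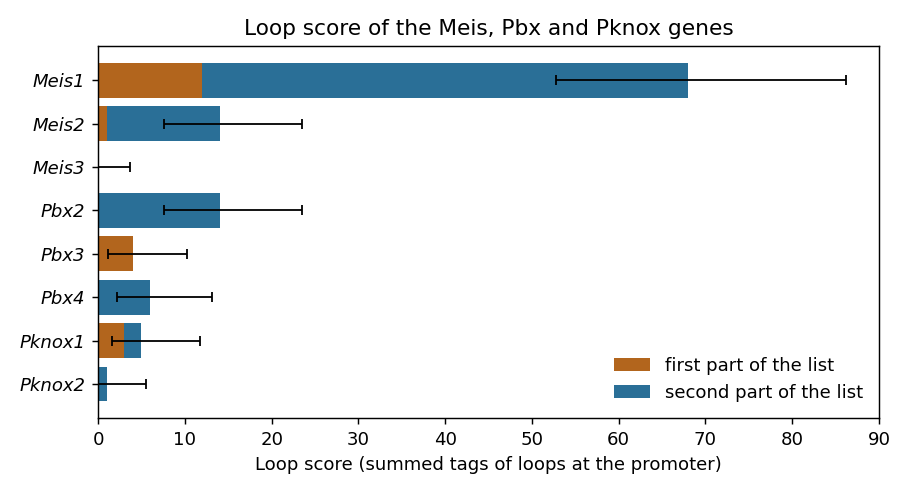
Loop score of each gene (horizontal axis, summed tags of the loops at its promoter), with bars split by the part of the list that holds the loops and lines for the exact 95% Poisson interval of the sum. Meis1 stands at 68 tags, Meis2 and Pbx2 at 14 each, and Meis3 at 0.

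Among the 13200 genes with a loop, Meis1 ranked 133rd by loop score, and 99.0% of them had a lower score. Its 20 loops were more than those of 98.1% of looped genes. Meis2 and Pbx2 each had a score above 83.6% of looped genes. Pbx4 stood above 61.7%, Pknox1 above 55.6% and Pbx3 above 47.4%, which is close to the middle of the looped genes, whose median score was 4. Pknox2 was at the lowest score the list allows.

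The promoter anchors differed in width, and a wide anchor can gather more tags. The promoter anchors of Meis1 covered 15.6 kb together, against a median of 3.0 kb over looped genes, and its widest anchor of 11.5 kb was exceeded by only 2 of all 16864 anchors. Per kb of promoter anchor, Meis1 had 4.36 tags and Pbx2 had 4.49. On this scale both stood close together, above 85.4% and 85.8% of looped genes. Pbx4 had 2.65 tags per kb over an anchor of 2.27 kb. Pbx3 with 1.43, Meis2 with 1.39 and Pknox1 with 1.34 lay near the median of looped genes, 1.25 tags per kb. Pknox2 had 0.211 tags per kb over an anchor of 4.75 kb.

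By position the list ran through the genome from start to end in 2 successive parts, neither of which can be tied to a tumor. The second part held 43.6% of all loops and 31.1% of all tags. Of the member tags it held 92 of 112, or 82.1% (Wilson 95% interval, 74.0 to 88.1), and of the member loops 80.9%. The first part held 20 member tags in 9 loops. Meis1 had 12 tags in the first part and 56 in the second, Meis2 had 1 and 13, and Pknox1 had 3 and 2. These 3 genes were looped in both parts, against 51.1% of all looped genes. Pbx3 had all 4 tags in the first part, while Pbx2 with 14, Pbx4 with 6 and Pknox2 with 1 had all tags in the second.

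A single tag carried 33 of the 47 loops, or 70.2% (56.0 to 81.3), against 78.0% of all loops. The parts differed in this share. In the first part it was 66.7% of member loops against 69.5% of all loops, and in the second 71.1% against 89.1%. At least 4 tags were seen in 9 member loops, against 6.74% of all loops, and these 9 loops held 68 tags, or 60.7% of the member total. They belonged to Meis1 (6 loops), Pbx2 (2 loops) and Meis2 (1 loop). An FDR under 0.001 was listed for 8 member loops, 6 of them at Meis1, 1 at Meis2 and 1 at Pbx2, against 8.06% of all loops. Pbx3, Pbx4, Pknox1 and Pknox2 had no loop of at least 4 tags and none with an FDR under 0.001.

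**Figure D2:**
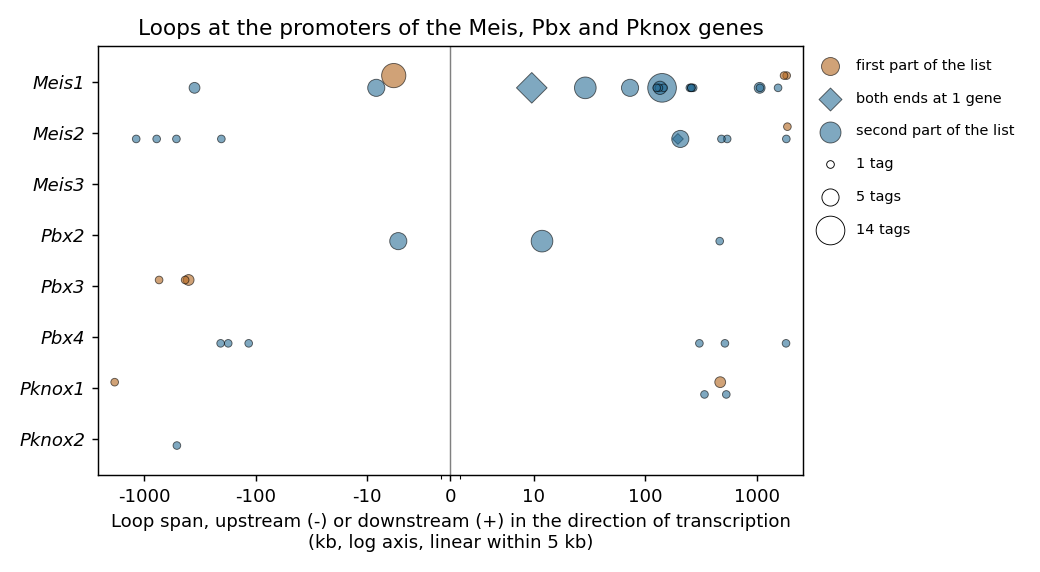
Each loop at a member promoter, by gene (vertical axis) and span in kb (horizontal axis, logarithmic beyond 5 kb), with upstream spans negative, downstream spans positive, marker area for the tags and colour for the part of the list. Diamonds are the 2 loops with both ends at the same gene, whose side has no meaning, and the largest circle is the Meis1 loop of 14 tags.

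Meis1 (ENSMUSG00000020160.18) spans 139 kb at chr11:18879817-19018985 on the minus strand. In the first part its promoter anchor was chr11:19018111-19024543, with 3 loops and 12 tags. In the second part an anchor at chr11:19013083-19024543, which also covers a TSS of Gm16141, had 14 loops and 53 tags. A further anchor at chr11:19007112-19011261, within the gene and shared with 2610001A08Rik and Gm16140, had 4 loops and 11 tags. A loop of 8 tags with an FDR of 0.000372 joined the last 2 anchors over 9.63 kb, so its tags stand in both sums but only once in the loop score.

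The strongest member loop of all joined the Meis1 promoter to a region just beyond the 3′ end of the gene. It had 14 tags over 142 kb, and its FDR was listed as 0. Its distal anchor, chr11:18874612-18878517, lies 0.303 kb from the TSS of 8430419K02Rik, a gene known by its clone name. Among the 17796 loops of the whole list that span 100 kb to 1 Mb, 0.0843% had at least 14 tags. Among the 8598 such loops of the second part, where it was found, 14 tags was the highest count and 2 loops reached it. The anchor took part in 13 loops with 39 tags altogether, and the loop to Meis1 made up 31.1% of the loop score of 8430419K02Rik, 45 tags.

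**Figure D3:**
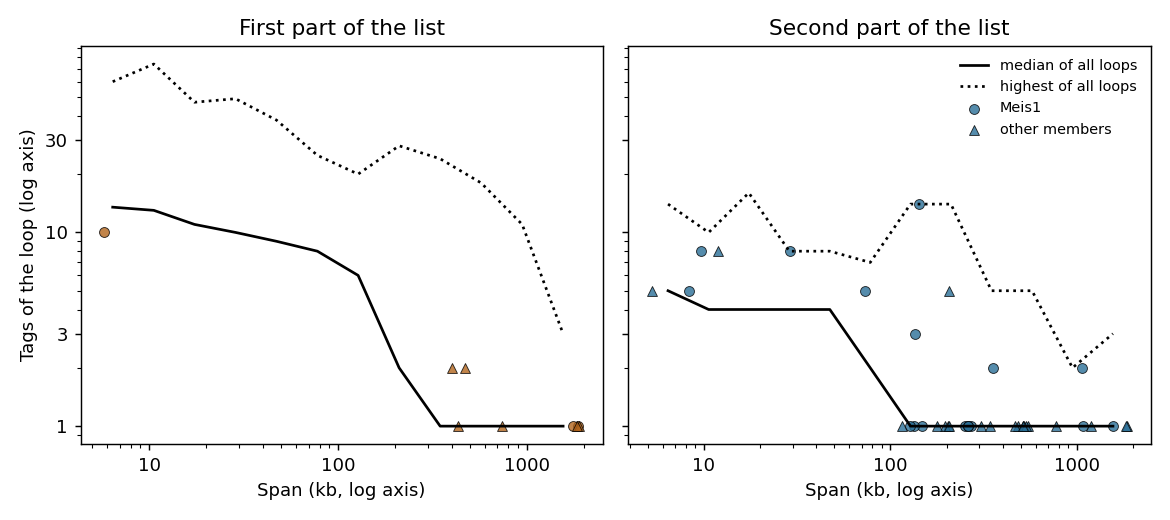
Tags (vertical axis, logarithmic) against span in kb (horizontal axis, logarithmic) for the loops of Meis1 and of the other members in each part of the list, with lines for the median and the highest count of all loops in bins of span. In the second part the Meis1 loop of 14 tags over 142 kb lies on the line of the highest counts.

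A region upstream of Meis1 was the only distal region of any member that was reached in both parts of the list. This region, chr11:19025612-19028646, lies 6.63 kb from the nearest TSS, which is that of Meis1. The first part gave 10 tags over 5.8 kb with an FDR of 0.0315, and the second gave 5 tags over 8.32 kb with an FDR of 0.0118. Loops of under 20 kb had a median of 12 tags in the first part and 4 in the second, so the counts were near those of other loops of this span.

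Meis1 was also looped to its own introns. An intronic region at chr11:18988757-18990579 was joined by 8 tags over 29.1 kb (FDR 0.000187), and another at chr11:18944249-18946718 by 5 tags over 73.3 kb (FDR 0.0117). These counts stood above the second-part median of 4 tags for loops of 20 to 100 kb. The region with the last Meis1 exon, chr11:18880117-18885189, was joined by 3 tags over 136 kb, with an FDR of 9.7e-05. All 3 contacts were listed in the second part and not in the first. Listed loops of similar span had higher medians in the first part, 10, 8 and 6 tags.

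The remaining loops of Meis1 had 1 or 2 tags each. Etaa1, a gene of the replication stress response, was reached by 2 tags over 1065.7 kb (FDR 0.000208), and a region 355 kb upstream by 2 tags (FDR 0.000489). The other 11 loops had a single tag each, over spans from 127 kb upward. They included Ppp3r1, a regulatory subunit of calcineurin, at 1861.9 kb and C1d, a factor of the nuclear exosome, at 1763.7 kb, both in the first part. Of the Meis1 tags, 36 came from loops of under 100 kb, 26 from loops of 100 kb to 1 Mb and 6 from longer loops. Downstream loops, toward and past the 3′ end, held 43 tags and upstream loops 17, with the loop inside the promoter set aside.

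The Meis1 contacts belonged to a set of loops over the same region. From chr11:18746760 to chr11:19374481, a stretch of 628 kb, 26 loops held 88 tags. Of these, 11 loops with 26 tags did not touch the Meis1 promoter. The anchor beyond the 3′ end was joined to the intronic region at 29.1 kb by 4 tags (FDR 1.03e-05), to the region of the last exon by 5 tags and to the region at the Gm28401 TSS by 4 tags (FDR 5.37e-06). All 11 loops came from the second part of the list.

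**Figure D4:**
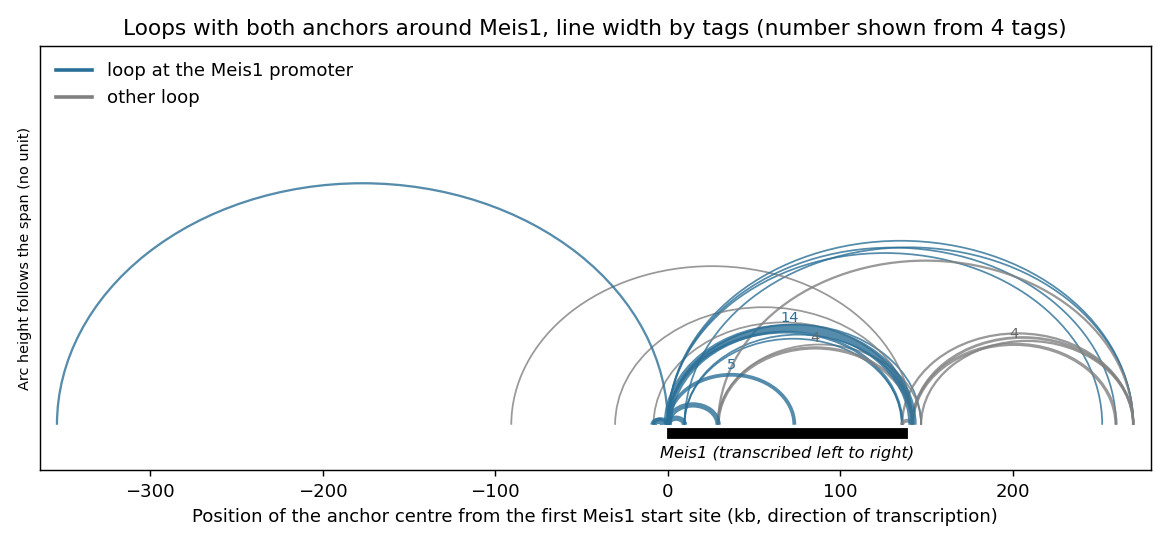
Loops with both anchors within the 628 kb around Meis1, drawn as arcs between anchor centres (horizontal axis, kb from the first Meis1 TSS in the direction of transcription), with wider lines for more tags and the number given for longer loops of at least 4 tags. The thickest arc of 14 tags runs from the promoter to the end of the gene body, the black bar.

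Meis2 (ENSMUSG00000027210.20), a close relative of Meis1, covers 203 kb at chr2:115863064-116065839 on the minus strand. Its 16 distinct TSSs are spread over 197 kb, and its promoter windows cover 27.6 kb. Its 10 loops held 14 tags, 9 of the loops with a single tag. The strongest had 5 tags over 207 kb with an FDR of 3.73e-10. It joined the anchor at the main start sites, chr2:116063335-116068474, to a region beyond the 3′ end of the gene, chr2:115856774-115860672, which lies 8.2 kb from the nearest TSS. The strongest contact of both Meis1 and Meis2 beyond 100 kb thus joined the start of the gene to a region just past its end.

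The region past the 3′ end of Meis2 had 6 loops and 13 tags. It was also joined by 3 tags over 214 kb (FDR 2.02e-05) to an anchor upstream of the Meis2 start. That anchor lies 1.37 kb from the TSS of 2810405F15Rik. The first part of the list held a loop between overlapping regions, with 3 tags over 213 kb and an FDR of 0.00182, although it held no loop from this region to the Meis2 anchor itself. A region within Meis2 was reached from it by 2 tags over 161 kb. Of the remaining Meis2 loops, 1 stayed between 2 of its own start sites over 197 kb, and the others reached regions from 204 to 1890 kb away. The main anchor is shared with 2700033N17Rik and G630016G05Rik, so its tags cannot be given to Meis2 alone.

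Meis3 (ENSMUSG00000041420.18), at chr7:16175090-16186504, was the only member without a loop. The nearest anchor of any loop lay 36.7 kb from its TSSs. The region itself held loops, with 24 distinct anchors within 500 kb, against 20 for Meis1 and 12 for Meis2. Its RefSeq promoter, 300 bases around the start, had a GC content of 66.7%, higher than that of 85.0% of all promoters in the table.

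Pbx2 (ENSMUSG00000034673.14), at chr17:34591266-34597400, is a compact gene of 6.13 kb in the gene-dense class III part of the major histocompatibility complex. Its anchor, chr17:34591280-34594399, also lies within 2 kb of a TSS of Gpsm3, a modulator of G protein signaling. A loop of 8 tags over 11.9 kb (FDR 0.00029) reached Agpat1, an acyltransferase of phospholipid synthesis, and Rnf5, an ubiquitin ligase of the endoplasmic reticulum, together with Gm20463. A loop of 5 tags over 5.28 kb (FDR 0.0123) reached Notch4, a Notch receptor. Gpsm3 had a TSS within 2 kb of both ends of this loop. The third loop, a single tag over 467 kb, reached Ddah2. The loops with Pbx2 were a small share of the tags at these neighbors, 7.55% of 106 for Agpat1 and 8.47% of 59 for Notch4.

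The surroundings of Pbx2 were rich in anchors, with 53 distinct anchors within 500 kb, the most of any member. Of its 14 tags, 13 lay in loops of under 100 kb, whereas Meis2, with the same score, had none. The median span was 11.9 kb for Pbx2 and 530 kb for Meis2. The RefSeq promoter of Pbx2 was the richest in GC of the 5 member promoters in the table, at 76.0%, higher than 96.9% of all promoters. Its 150 bases before the start, chr17:34592109-34592258 on the plus strand and in an intron of a longer Pbx2 transcript, are shown beside the same length before the Meis1 start, chr11:19018986-19019135 on the minus strand, for their difference in composition. The RefSeq promoter of Meis1 had a GC content of 58.3%.
Pbx2 promoter: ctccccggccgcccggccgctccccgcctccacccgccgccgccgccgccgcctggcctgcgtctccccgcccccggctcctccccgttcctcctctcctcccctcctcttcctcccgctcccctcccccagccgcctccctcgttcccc
Meis1 promoter: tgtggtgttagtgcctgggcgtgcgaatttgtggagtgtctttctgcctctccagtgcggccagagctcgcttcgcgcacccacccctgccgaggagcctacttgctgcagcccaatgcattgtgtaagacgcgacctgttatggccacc
Both are RefSeq promoter sequences on GRCm38.p6.

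Pbx3 (ENSMUSG00000038718.15), at chr2:34171457-34373142 on the minus strand, had 3 loops, all upstream and all in the first part. Hspa5, the chaperone BiP of the endoplasmic reticulum, was reached by 2 tags over 401 kb (FDR 0.00251), which were 40.0% of the loop score of Hspa5, 5 tags. Rabepk and Cntrl were each reached by a single tag, over 431 and 738 kb. Loops of this span had a median of 1 tag in the list.

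Pbx4 (ENSMUSG00000031860.17), at chr8:69832491-69872292, had 6 loops of 1 tag each, so the gene had more loops than Pbx2 but no loop that was seen more than once. They ran both ways, with 3 tags upstream and 3 downstream. The targets included the zinc finger genes Zfp868 at 207 kb and Zfp964 at 177 kb, Upf1, a factor of nonsense-mediated decay, at 520 kb, and Unc13a, a priming factor of synaptic vesicles, at 1837.4 kb. Another loop of 307 kb reached an anchor shared by Borcs8, Mef2b and Rfxank. Within 500 kb of Pbx4 lay 41 distinct anchors.

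Pknox1 (ENSMUSG00000006705.13), at chr17:31564734-31607693, had 4 loops and 5 tags from overlapping anchors at its start. Hsf2bp and Rrp1b, which share an anchor, were reached by 2 tags over 472 kb in the first part (FDR 0.00173), or 9.52% of the 21 tags of each. The other loops, a single tag each, spanned 341, 535 and 1847.3 kb. Pknox2 (ENSMUSG00000035934.16), at chr9:36890982-37147407, had a single loop of 1 tag over 511 kb. It reached Tbrg1, a regulator of growth named for transforming growth factor beta, and was the only loop of Tbrg1. Only 6 distinct anchors lay within 500 kb of Pknox2, the fewest of any member.

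The far ends of the loops were counted for all members, and for Meis1 and Meis2 apart from the Pbx and Pknox genes. That split does not follow families, since it pools Pknox with Pbx, and it was not among the planned results. Of 41 distinct distal anchors, 26 lay within 2 kb of a TSS of another gene, or 63.4% (48.1 to 76.4), against 78.7% over all looped promoters. For Meis1 and Meis2 together this held for 11 of 24, or 45.8% (27.9 to 64.9), and for the Pbx and Pknox genes for 15 of 17, or 88.2% (65.7 to 96.7). These anchors are not independent, since many share a promoter. With a window of 5 kb the share over all members was 79.4%. The share over all looped promoters and the split are given at 2 kb only, so 79.4% has no background here. By tags, Meis1 had 39 in loops to regions away from TSSs and 21 in loops to other TSSs. Meis2 had 8 and 5, while Pbx2 had 0 and 14 and Pbx3 0 and 4.

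The spans of the member loops had a median of 341 kb, against 500 kb for all loops, and ran from 5.28 to 1890 kb. Loops of under 20 kb held 32.1% of member tags, compared with 14.8% of all tags. Loops of 100 kb to 1 Mb held 46.4%, compared with 57.9%, and those of at least 1 Mb held 9.82%, compared with 13.2%.

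The letters of the known binding sequences were counted in the 12 promoter anchors, of which those of Meis1 and Pknox1 include an overlapping pair each. TGACAG was in 10 of 12, or 83.3%, against 88.3% for all anchors in windows of the same length. TGATTNAT was in 7, or 58.3%, against 35.7%, and TGATTGAC in 4, or 33.3%, against 8.24%. In the 41 distal anchors the shares were 80.5%, 31.7% and 7.32%, against 80.8%, 25.6% and 5.68%. In the middle 1 kb of the promoter anchors they were 50.0%, 16.7% and 16.7%, against 46.0%, 6.74% and 2.08%. The copies of TGATTGAC counted 4 anchors but only Meis1 and Meis2. The RefSeq promoters of Meis1, Meis2, Meis3, Pbx2 and Pbx4 held none of the 3 sequences, against 19.2%, 3.22% and 0.771% of all promoters.

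Other lists of homeobox genes were set beside these genes. Of the 39 Hox genes, the partners of Pbx and Meis proteins, 34 had a loop, with a median score of 8 and a range of 0 to 385 tags. The other TALE genes analysed here had a loop in 7 of 9, with a median of 17. Tgif1 and Tgif2, repressors of the same class, had 22 tags each, Irx3 had 19, Irx1 and Irx2 17 each, Irx5 11 and Irx6 4, and Mkx and Irx4 had none. The median of the 8 members was 5.5 tags with a range of 0 to 68. With the window of 2 kb Meis1 was the only TALE gene of these lists with more than 22 tags, while with 5 kb Pbx2 also had 68, and Meis1 lay within the range of the Hox genes.

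**Figure D5:**
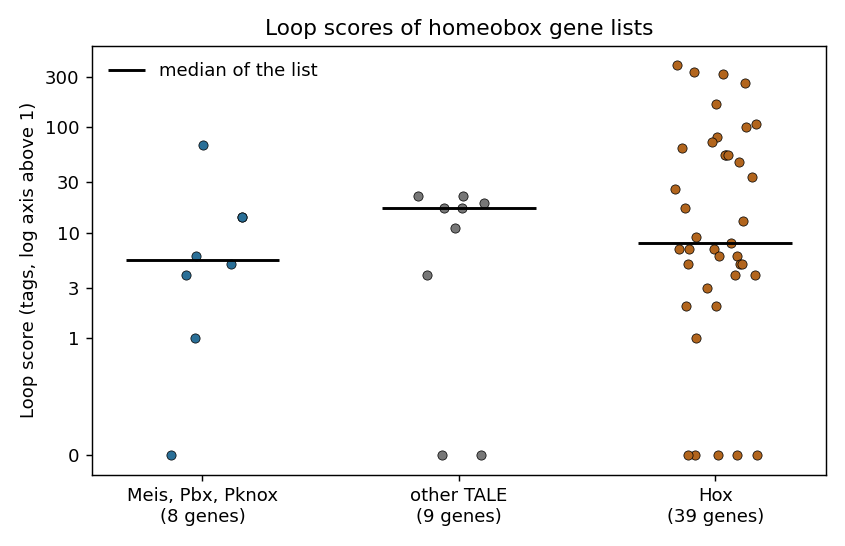
Loop scores (vertical axis, tags, logarithmic above 1) of the 8 Meis, Pbx and Pknox genes, 9 other TALE genes and 39 Hox genes, a point for each gene, with lines for the medians of 5.5, 17 and 8 tags. With the window of 2 kb Meis1 at 68 is the highest of the TALE genes, and several Hox genes lie above it.

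Loops do not measure expression, and lists of cell type markers are given as a description. Of 4 genes marking synovial sarcoma 3 had a loop (Sox2 with 39 tags, Cd24a 19 and Tle1 4, and Bcl2 with none). So had 1 of 5 muscle genes (Ckm, 2 tags), 0 of 4 macrophage genes and 2 of 4 endothelial genes (Cdh5 with 3 tags and Tek with 1). Over protein-coding genes 45.8% had a loop, and lists this short cannot be told apart from that share. Among the muscle, macrophage and endothelial lists the summed score of a gene thus did not exceed 3 tags. The first part of the list held 28657 of the 41574 tags in 13683 loops and the second 12917 in 10561.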

How the data were processed

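H3K27ac HiChIP was measured in 2 hSS2 tumors of a series of 71 samples, of which the 69 ChIP-seq samples are not used here. The authors digested crosslinked chromatin with MboI, aligned reads with HiC-Pro (mm10), used hichipper with its Mango statistics to call loops and merged both tumors. How the counts were merged is not given in the sources used here. The deposited list gives a tag count per loop, not normalized, and the FDR of each loop, an adjusted p-value from the authors' caller. Replicates and depth per tumor cannot be separated, and 41574 tags over 24244 loops limit single loops.

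TSSs were the starts of all GENCODE vM21 transcripts on GRCm38, the assembly of mm10, and an anchor overlapping the window of 2 kb around one was assigned to its gene. Span was the distance between anchor midpoints. Sums have exact Poisson and shares Wilson 95% intervals. For a plain count of 0 tags the exact interval would reach 3.69, but contacts that the caller did not list are not counted. Named genes were all members, genes at the far end of each member's strongest loop and of loops of at least 4 tags, genes sharing a promoter anchor, and the Hox and other TALE lists. Etaa1, Ppp3r1, C1d, Gm28401, 2810405F15Rik, Ddah2, Rabepk, Cntrl and the Pbx4 targets other than Unc13a fall outside this rule and were named after their values were seen. The members and lists were chosen with earlier results of these data known. Of the genes on the lists, 2 are not reported here. RefSeq promoters cover 250 bases before to 50 after a start, and 5 of the 8 members matched. Alternatives were other windows, transcripts, FDR and tag thresholds, spans up to 1 Mb and either part of the list. The assignment was tested on simulated data. Scripts ran in Python 3.11.15 with pysam 0.24.0, scipy 1.17.1, pandas 2.3.3 and numpy 2.4.6.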

Additional observations from a re-analysis of the deposited data

How the results depend on the processing

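No paired analysis was possible because the deposited list merges both tumors, and for the same reason neither tumor could be left out. Of 153 alternative values, 107 lay inside the interval of the main value, and Meis3 had no loop in any of 13 settings. Loops were found at 3 members with an FDR under 0.001, at 3 with at least 4 tags and at 4 in the first part of the list alone. The summed score of 112 was 166 with a window of 5 kb, where Pbx2 rose to 68 because its window then took in the anchor at Notch4 and Gpsm3. It was 54 with an FDR under 0.01, of which Meis1 had 37, 50 with an FDR under 0.001, 79 with at least 2 tags, 68 with at least 4 tags, 20 in the first part, 92 in the second and 47 when loops were counted in place of tags. The share of distal anchors near a TSS of another gene, 63.4%, was 79.4% with a window of 5 kb, 42.9% both with an FDR under 0.001 and with at least 4 tags, and 88.9% in the first part. The share of loops with a single tag, 70.2%, was 0% with an FDR under 0.01 and under 0.001, and was not computed with tag minimums, which set it to 0. The share of promoter anchors with any of the 3 sequences, 91.7%, was 58.3% in the middle 1 kb. Over all anchors TGACAG alone was in 88.3% of windows of the same length and in 46.0% of the middle 1 kb. Most loops rest on 1 tag, so the targets of single loops are limited by depth. Where no cause is given, the cause was not tested.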
